A study of Mus musculus with 6 samples.

Results

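The collagens and nidogens of the basement membrane were followed in RNA-seq of mouse soleus, a slow postural muscle of the lower leg. The set held 10 genes, Col4a1, Col4a2, Col4a3, Col4a4, Col4a5, Col4a6, Col15a1, Col18a1, Nid1 and Nid2, each found by its symbol and joined to its read counts by Ensembl identifier. All 10 were among the 51912 genes of the count table, and 9 of them were among the 14696 genes with enough reads to be tested. Col4a6 was left out by the filter on low counts. The 3 HET libraries came from mice heterozygous for the Mustn1 KO-first allele, a whole-body gene trap that splices exon 1 of Mustn1 into a lacZ and neomycin resistance cassette. The 3 WT libraries came from wild-type littermates. All mice were 8 weeks old, of strain C57BL6/N and labelled male, and no other treatment or allele was named. The allele leaves a wild-type copy of Mustn1, and its splice trap need not be fully efficient.

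Basement membranes are thin sheets of matrix that wrap each muscle fiber, capillary, nerve and fat cell. Laminins form a first polymer on the cell surface, collagen IV forms a second, covalently crosslinked network, and nidogens and the proteoglycan perlecan link them. Collagens XV and XVIII carry sugar side chains and sit at the interface between the basement membrane and the interstitial matrix, where fibrillar collagens and collagen VI take over.

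Library depth ran from 26790075 to 50368796 reads assigned to genes. Mustn1, the targeted gene, was at 12.6, 16.8 and 13.1 CPM (read counts scaled to a common library size with TMM) in HET and at 23.1, 29.0 and 30.5 CPM in WT. Its log2 fold change was −0.96 (SE 0.15, adjusted p = 0.0452, edgeR), and it was lower in every HET library. The libraries went against the label on sex. Xist, which is transcribed from the inactive X chromosome of females, had 3858 to 9154 reads in each of the 6, while the Y-linked genes Ddx3y, Kdm5d, Uty and Eif2s3y had 0 to 12 reads together. This was so in both genotypes. Of the members, Col4a5 and Col4a6 are X-linked. Muscle fiber markers were high throughout, with a summed level of 72016 to 84144 CPM in HET and 75348 to 77806 CPM in WT. In whole muscle, fewer cells of a type and less RNA per cell cannot be told apart.

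Collagen IV genes lie in head-to-head pairs, which is why they are described in pairs. On GRCm38, Col4a1 (chr8:11198423-11312826, minus strand) and Col4a2 (chr8:11312805-11449287, plus strand) overlapped by 22 bases at their starts. Col4a3 (chr1:82586921-82722059, plus) and Col4a4 (chr1:82448423-82586849, minus) were 71 bases apart. Col4a5 (chrX:141475385-141689234, plus) and Col4a6 (chrX:141165403-141474076, minus) were 1308 bases apart. The sequences that join the first pairs are given with the sequences just before the first exon of Nid1 and of the distal start of Col18a1, the members whose libraries separated by genotype. They were read from RefSeq promoter windows of GRCm38.p6, which held 8 of the 10 members (not Col4a3 or Nid2). Capitals mark the CCAAT box (CCAAT), the GC box (GGGCGG) and the TATA box (TATAAA), searched on both strands. Col18a1 also has another start, not printed, whose window (chr10:77113656-77113955, minus) held 0 of each box. The read counts are per gene and do not tell its starts apart. The first run is part of the facing first exons of both genes, at chr8:11312805-11312826 (plus strand). The second covers chr1:82586850-82586920 (plus), the third chr13:13437352-13437550 (plus) and the fourth chr10:77166549-77166780 (minus).
Col4a1 and Col4a2: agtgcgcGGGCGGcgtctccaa
Col4a4 and Col4a3: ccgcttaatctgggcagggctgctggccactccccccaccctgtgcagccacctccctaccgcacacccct
Nid1: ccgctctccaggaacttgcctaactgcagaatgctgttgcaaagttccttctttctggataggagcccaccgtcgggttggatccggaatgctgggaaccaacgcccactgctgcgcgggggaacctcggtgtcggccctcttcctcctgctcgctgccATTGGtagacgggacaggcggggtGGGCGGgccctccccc
Col18a1 distal start: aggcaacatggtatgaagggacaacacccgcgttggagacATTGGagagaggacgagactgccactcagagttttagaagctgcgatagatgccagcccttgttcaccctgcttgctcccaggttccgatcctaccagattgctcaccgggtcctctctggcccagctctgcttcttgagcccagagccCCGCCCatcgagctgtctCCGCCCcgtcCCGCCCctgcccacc

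The run shared by Col4a1 and Col4a2 was 72.7% G and C, and that between Col4a4 and Col4a3 was 69.0%. The GC box GGGCGG stood in 6 of the 9 member windows, against 35.7% of all 32851 windows of the same length. CCAAT stood in 5 of the 9, against 37.4% of all windows. TATAAA stood in 0 of the 9, against 13.6% of all. Member windows ran from 48.3% to 74.0% G and C, where the median of all windows was 52.7%. The shares were not matched for this content. The windows of Col4a1 and Col4a2 overlap, so their counts share bases. These matches describe the letters of the windows only.

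The members spanned a wide range of levels in soleus. Levels are given as RPKM, which is TMM-scaled CPM per kilobase of exon, so that genes of different length can be set side by side. Averaged over the 6 libraries, Col4a1 was highest at 57.7 ± 11.4 RPKM (SD, n = 6), followed by Col4a2 at 43.9 ± 8.09 RPKM. Col4a1 lay above 96.3% of the genes tested and Col4a2 above 95%. Their chains form the collagen IV trimer found in nearly all basement membranes. Among all collagen genes Col4a1 ranked 2 and Col4a2 ranked 5, with Col1a1 at rank 1, Col1a2 at rank 3 and Col3a1 at rank 4. Nid1 (15.6 ± 3.22 RPKM) and Col15a1 (14.6 ± 3.0 RPKM) came next.

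Col18a1 (3.01 ± 0.940 RPKM) and Nid2 (2.78 ± 0.577 RPKM) followed near the middle of the genes tested, above 52.3% and 50.4% of them. Col4a5 was at 1.64 ± 0.297 RPKM. The partners of its chain were far lower, Col4a3 at 0.247 ± 0.0429 RPKM, Col4a4 at 0.170 ± 0.0444 RPKM and Col4a6 at 0.0225 ± 0.0155 RPKM. In all, 4 neighbouring pairs in this order had ranges that overlapped over the libraries: Col4a1 and Col4a2, Nid1 and Col15a1, Col18a1 and Nid2, and Col4a3 and Col4a4. Within libraries, Col4a1 was above Col4a2 in 6 of 6, Col4a3 above Col4a4 in 6 of 6, Nid1 above Col15a1 in 5 of 6 and Col18a1 above Nid2 in 4 of 6. All other neighbours lay apart. Col4a1 and Col4a2 together made up 97.8% ± 0.695 of collagen IV RPKM in HET and 98.0% ± 0.593 in WT (SD, n = 3 each).

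**Figure D1:**
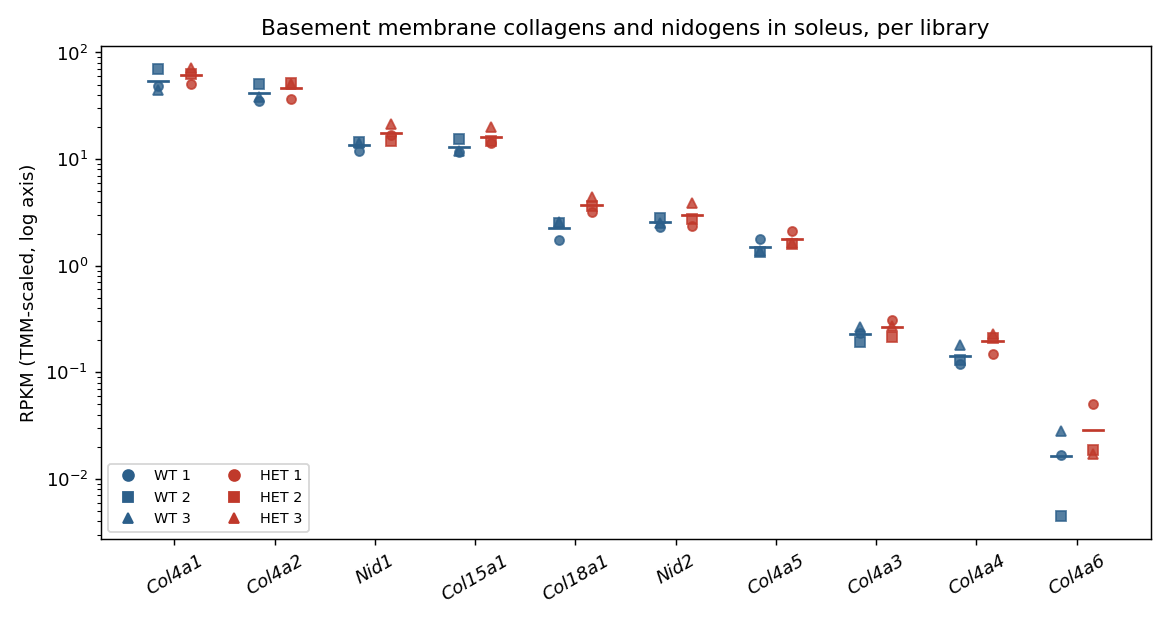
Level of each member in each library, as TMM-scaled RPKM on a log axis, in order of mean level; points are libraries (WT blue, HET red, the symbol giving the replicate number) and short lines are group means. Col4a1 and Col4a2 lie at 35.0 to 71.0 RPKM and Col4a6 at 0.0503 RPKM or below. The HET libraries all lie above the WT libraries for Col18a1 and, narrowly, for Nid1 (HET 2 at 14.9 and WT 2 at 14.5 RPKM).

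Between genotypes, none of the tested members passed the test. Col18a1 (log2 fold change 0.71) and Nid1 (0.39) had the lowest p values and were the members whose libraries did not overlap, while Col4a4 (0.44) had a larger fold change than Nid1 but overlapped. With edgeR's quasi-likelihood test and Benjamini-Hochberg adjustment over all genes, 0 of the 9 tested members had an adjusted p under 0.05, against 0.143% of all genes tested that were higher in HET and 0.0068% that were lower. DESeq2 called 1 of the 9, Col18a1, where it called 1.48% of all genes as higher and 0.0544% as lower, and limma-voom called 0. At an unadjusted p under 0.05, 2 of the 9 were higher in HET, Col18a1 and Nid1, against 5.76% of all genes tested. The same 2 had every HET library above every WT library, against 7.55% of all genes, and 0 of the 9 had every HET library below, against 6.02%. All 9 log2 fold changes were above 0, as were 45.6% of those of all genes, and their median was 0.27, where the median over all genes was −0.02.

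**Figure D2:**
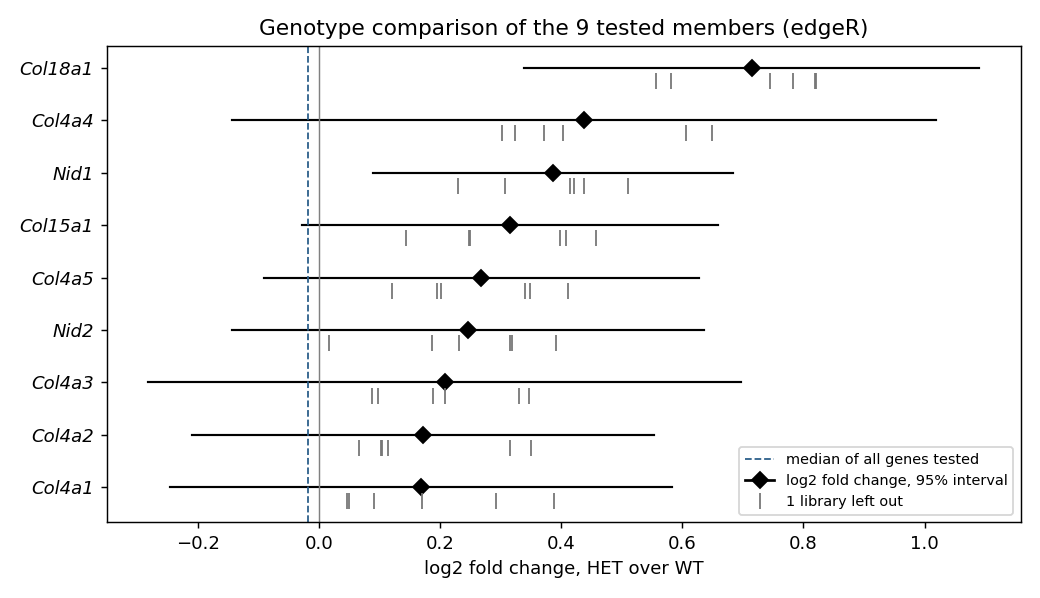
Log2 fold change, HET over WT, of the 9 tested members (diamonds) with 95% intervals (lines), the values with each library left out in turn (grey ticks) and the median of all genes tested (dashed line). The intervals of Col18a1 (0.34 to 1.09) and Nid1 (0.09 to 0.68) lie above 0 and the other 7 include 0; adjusted p values are 0.174 for Col18a1 and 0.421 for Nid1.

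Col4a1 was at 50.1, 62.2 and 71.0 RPKM in HET and at 48.4, 69.8 and 44.8 RPKM in WT. The groups overlapped, with WT 2 close to HET 3, the highest library. Its log2 fold change was 0.17 (SE 0.18, 95% interval −0.25 to 0.58, adjusted p = 0.912, edgeR). It was 0.05 without HET 3 and also without WT 3, 0.09 without WT 1, 0.29 without HET 1 and 0.39 without WT 2. Col4a2 was at 36.8, 51.8 and 51.0 RPKM in HET and at 35.0, 50.9 and 37.9 RPKM in WT, and again WT 2 lay within the upper HET range. Its log2 fold change was 0.17 (SE 0.17, interval −0.21 to 0.55, adjusted p = 0.897, edgeR), and it ran from 0.07 without WT 1 to 0.35 without WT 2. The intervals allow an increase of at most 0.58 and a decrease of at most 0.25 on the log2 scale for Col4a1, so a change as large as that of Mustn1 would lie outside them. The summed level of the 6 collagen IV genes was 110 ± 18.1 RPKM in HET and 97.5 ± 21.6 RPKM in WT, and the groups overlapped.

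The chains of Col4a3, Col4a4 and Col4a5 form the trimer best known from kidney glomerulus and lung. Col4a3 had 115, 57 and 120 reads in HET and 69, 54 and 130 in WT, which is 0.308, 0.213 and 0.274 RPKM against 0.232, 0.192 and 0.264 RPKM. Its log2 fold change was 0.21 (SE 0.22, interval −0.28 to 0.70). The groups overlapped, with WT 3 above HET 2. Col4a4 had 59, 60 and 107 reads in HET and 38, 39 and 94 in WT, and its log2 fold change was 0.44 (SE 0.26, interval −0.14 to 1.02). The groups overlapped here too. With 1 library left out, the value ran from 0.09 to 0.35 for Col4a3 and from 0.30 to 0.65 for Col4a4. Of Col4a3, 563 of 9967 exon bases lie opposite an exon of C430014B12Rik. The counting was stranded, so reads of the other strand were not assigned to it.

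Col4a5 was at 2.14, 1.61 and 1.63 RPKM in HET and at 1.78, 1.34 and 1.36 RPKM in WT. In both genotypes the library numbered 1 was highest, and the groups overlapped. Its log2 fold change was 0.27 (SE 0.16, interval −0.09 to 0.63, adjusted p = 0.808, edgeR), and it ran from 0.12 without HET 1 to 0.41 without WT 1. Col4a6, whose chain pairs with that of Col4a5 in smooth muscle and skin, had 15, 4 and 6 reads in HET and 4, 1 and 11 in WT. The sums were 25 reads in HET (exact 95% Poisson interval 16.2 to 36.9) and 16 in WT (9.15 to 26.0), and these intervals cover counting error only. They overlap, which is not a test of a difference, and 15 of the 25 HET reads came from HET 1. With no filter on low counts, edgeR gave a log2 fold change of 0.71 (SE 0.72, adjusted p = 0.755).

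Nidogens bind laminin through its gamma chain and also bind collagen IV and perlecan. Nid1 (chr13:13437551-13512269, plus) was at 16.8, 14.9 and 21.4 RPKM in HET and at 12.03, 14.5 and 14.1 RPKM in WT. Every HET library was above every WT library, though HET 2 and WT 2 were close. The means were 17.7 ± 3.35 and 13.5 ± 1.33 RPKM, and the log2 fold change was 0.39 (SE 0.13, adjusted p = 0.421, edgeR). Without HET 3 it was 0.23. Nid2 (chr14:19751257-19811787, plus) was at 2.37, 2.77 and 3.88 RPKM in HET and at 2.33, 2.81 and 2.49 RPKM in WT. Only HET 3 stood outside the WT range, and the log2 fold change of 0.25 (SE 0.18, interval −0.14 to 0.64) was 0.02 without it. The nidogens summed to 20.7 ± 4.04 RPKM in HET and 16.1 ± 1.54 RPKM in WT, with every HET library above WT.

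Col15a1 and Col18a1 encode the related multiplexin collagens, and proteolysis of collagen XVIII releases endostatin. Col18a1 (chr10:77052178-77166548, minus) was at 3.17, 3.65 and 4.40 RPKM in HET and at 1.74, 2.50 and 2.58 RPKM in WT. All HET libraries lay above all WT libraries, and the means were 3.74 ± 0.623 and 2.28 ± 0.463 RPKM. It had the largest log2 fold change of the 9 tested members, 0.71 (SE 0.17, a 1.64-fold difference, adjusted p = 0.174, edgeR), and with 1 library left out it ran from 0.56 to 0.82. DESeq2 gave an adjusted p of 0.0082 for it and edgeR with the replicate number as a block 0.0344, so its call depends on the test. Over all alternatives tried, its adjusted p ran from 4.05e-06 to 0.615. Col15a1 (chr4:47208161-47313167, plus) was at 14.1, 14.7 and 19.9 RPKM in HET and at 11.8, 15.5 and 11.8 RPKM in WT. WT 2 was above HET 1 and HET 2, and the log2 fold change was 0.32 (SE 0.15, interval −0.03 to 0.66, adjusted p = 0.699, edgeR). It was 0.14 without HET 3 and 0.46 without WT 2.

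Ratios of genes within a library do not depend on how libraries are scaled, and 7 were formed from reads per base of exon. An exact two-sided permutation test of 3 against 3 libraries cannot give a p below 0.1, so none of the 7 could reach 0.05. Col4a2 over Col4a1 was 0.733, 0.833 and 0.718 in HET and 0.723, 0.729 and 0.845 in WT. The means of 0.761 ± 0.0622 and 0.766 ± 0.0691 differed by less than the spread between libraries (log2 difference −0.01, exact permutation p = 0.7, adjusted over the 7 ratios 0.7). Across the 6 libraries the profiles of Col4a1 and Col4a2 were also the closest of any pair of tested members. Their root mean square difference was 0.0993 in log2 CPM after centring, and 7 other tested genes were closer to Col4a1. The head-to-head pair Col4a3 and Col4a4, both low in reads, differed by 0.351, and 10400 other tested genes were closer to Col4a3.

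Col18a1 over Col15a1 was 0.225, 0.249 and 0.221 in HET and 0.148, 0.161 and 0.218 in WT. HET lay above WT, but WT 3 fell just short of HET 3. The log2 difference was 0.42 (exact permutation p = 0.1, adjusted 0.35); this is the smallest p that the design allows, so the test could not separate the genotypes at 0.05 whatever the values. Col4a1 over Col6a1, a main chain of collagen VI, was 1.73, 1.83 and 1.85 in HET and 3.20, 3.26 and 2.17 in WT. All HET libraries lay below all WT libraries, with a log2 difference of −0.65 (exact permutation p = 0.1, adjusted 0.35).

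The other 4 ratios overlapped between genotypes. Col4a1 over Pecam1, an endothelial adhesion molecule, was 2.63 ± 0.407 in HET and 2.23 ± 0.337 in WT (log2 difference 0.24, exact permutation p = 0.3, adjusted 0.42). Nid1 over Lamc1, the laminin chain that nidogen binds, was 0.803 ± 0.0559 and 0.728 ± 0.0535 (0.14, exact permutation p = 0.2, adjusted 0.42). Nid2 over Nid1 was 0.170 ± 0.0247 and 0.188 ± 0.00938 (−0.16, exact permutation p = 0.3, adjusted 0.42). Col4a4 over Col4a3 was 0.769 ± 0.260 and 0.625 ± 0.0932 (0.25, exact permutation p = 0.5, adjusted 0.583).

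**Figure D3:**
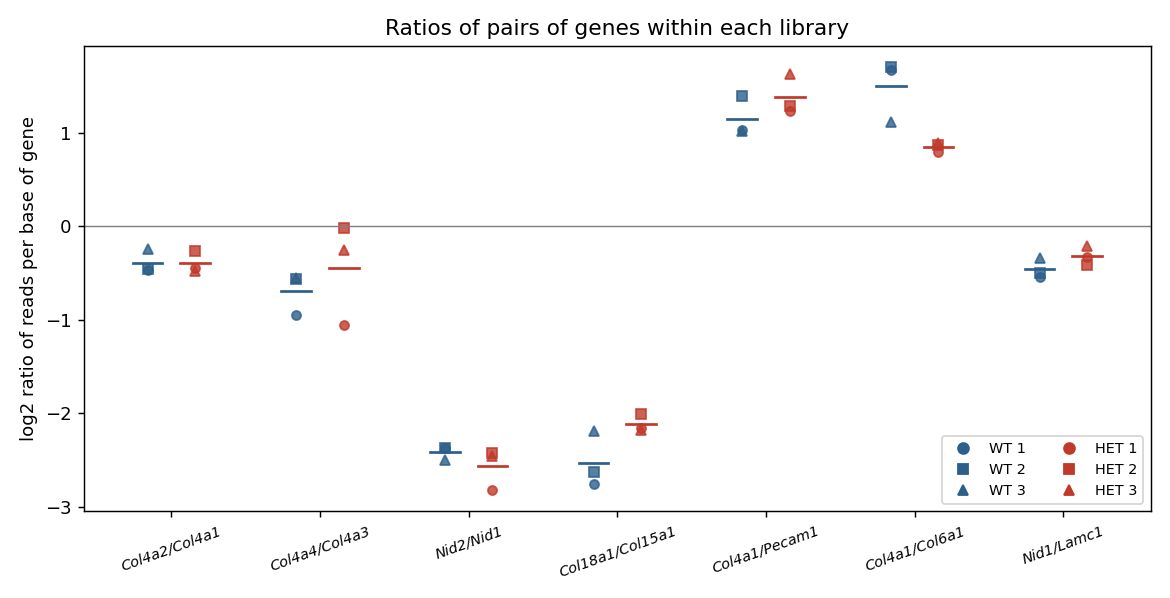
Log2 ratio of reads per base of exon for 7 pairs of genes, in each library (WT blue, HET red, the symbol giving the replicate number), with short lines at the group means. Col4a1 over Col6a1 is lower in every HET library (log2 difference −0.65) and Col18a1 over Col15a1 is higher (0.42), while Col4a2 over Col4a1 overlaps (−0.01).

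Collagen IV made up less of all collagen RPKM in HET. Its share was 24.4%, 23.3% and 22.4% in the HET libraries and 37.9%, 35.0% and 29.1% in the WT libraries. Every HET library was below every WT library, and the means of 23.4% ± 0.995 and 34.0% ± 4.46 (SD, n = 3 each) lay 10.6 percentage points apart, as a description with no test. The share of collagens XV and XVIII was 4.26% ± 0.518 in HET and 5.36% ± 0.544 in WT, also without overlap. The summed collagen IV level itself, given above, had a mean that was higher in HET and overlapped between genotypes. The sum over all 44 collagen genes was 473 ± 95.8 RPKM in HET and 289 ± 62.0 RPKM in WT. Fibrillar collagens took 53.4% ± 2.71 of it in HET and 42.5% ± 4.52 in WT, and collagen VI took 12.5% ± 1.04 and 11.3% ± 0.670.

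**Figure D4:**
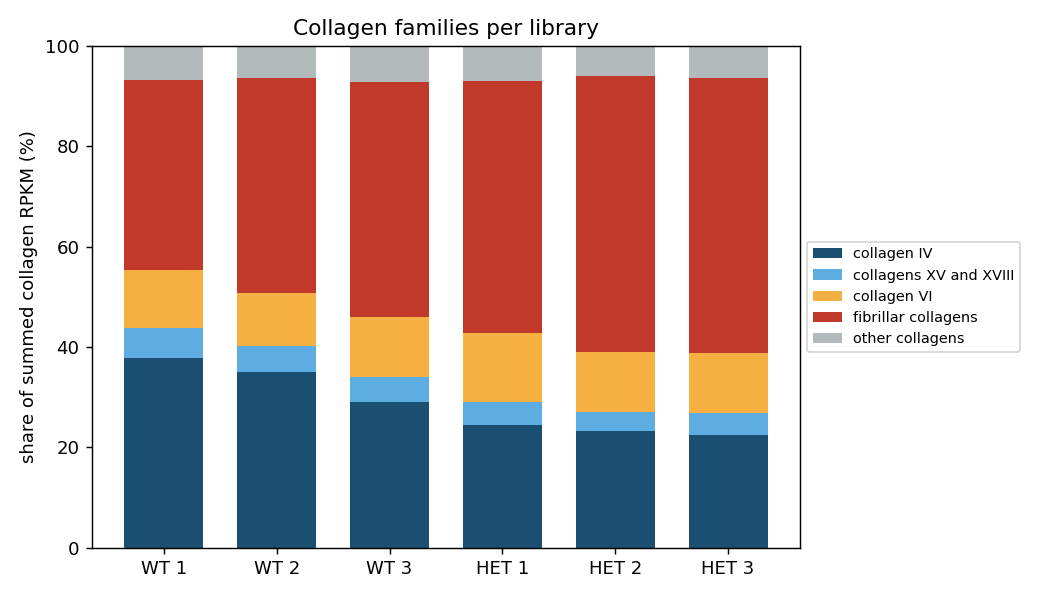
Share of each collagen family in the summed RPKM of 44 collagen genes, 1 bar per library, from 0 to 100%. Collagen IV (dark blue, bottom) takes 29.1% to 37.9% in WT and 22.4% to 24.4% in HET, and the fibrillar collagens (red) take 37.8% to 46.8% in WT and 50.3% to 55.1% in HET.

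The interstitial collagens set beside the members had a higher median fold change than the members. All 11 fibrillar collagens tested had log2 fold changes above 0, with a median of 0.83, from 0.34 for Col27a1 to 1.23 for Col1a1, and 0 of them passed the edgeR test. At an unadjusted p under 0.05 (edgeR), 10 of the 11 were higher in HET, against 5.76% of all genes tested. Of the 4 collagen VI chains tested, Col6a2 rose (log2 fold change 0.96, SE 0.15, adjusted p = 0.0493, edgeR). Of all genes tested, 0.143% were called higher in HET. Col6a1 had a log2 fold change of 0.82 (SE 0.15, adjusted p = 0.0785), and the lowest was Col6a6 at 0.32. The difference between these lists and the members was not tested beyond the ratio of Col4a1 to Col6a1.

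Among the other components of basement membranes, 0 of 26 tested genes passed the edgeR test. Of the 26, 21 had log2 fold changes above 0 and 5 below, where 45.6% of all genes were above 0, and the median was 0.22. Their range ran from −0.16 for Egflam, which encodes pikachurin, to 1.19 for Fbln1, a fibulin. Laminins, which make up 10 of the 26, had a median of 0.22, from −0.16 for Lama3 to 0.75 for Lamc3. Lamc1 was at 181 ± 21.5 CPM in HET and 154 ± 14.1 CPM in WT (log2 fold change 0.24, SE 0.11). Hspg2, which encodes perlecan, was at 318 ± 29.4 and 272 ± 44.9 CPM (0.22, SE 0.12). Sparc, a glycoprotein that binds collagen IV, was at 763 ± 165 and 505 ± 85.6 CPM (0.60, SE 0.17, adjusted p = 0.306).

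Of the 19 genes for collagen IV assembly and crosslinking, 0 passed the edgeR test. At an unadjusted p under 0.05 (edgeR), 8 were higher in HET and 0 lower, against 5.76% and 2% of all genes tested. The median was 0.23, from −0.06 for the prolyl hydroxylase subunit P4ha2 to 1.21 for P4ha3. Serpinh1, the collagen chaperone HSP47, was at 131 ± 23.3 CPM in HET and 93.9 ± 14.3 CPM in WT (log2 fold change 0.48, SE 0.15, adjusted p = 0.344). Pxdn, the peroxidase that forms the sulfilimine crosslinks of collagen IV, was at 51.5 ± 3.93 and 46.3 ± 6.67 CPM (0.15, SE 0.12). Serpinh1 and the hydroxylases also serve the fibrillar collagens, whereas the sulfilimine crosslink belongs to collagen IV.

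The 11 receptors of basement membrane collagens had a median of 0.04, with 7 above 0 and 4 below, from −0.16 for the laminin receptor subunit Itga6 to 1.22 for the collagen receptor subunit Itga2, and 0 passed the edgeR test. Of the 10 proteases listed, 7 were tested. Calls of higher in HET made up 0.143% of all genes tested (edgeR), and of the 7 proteases Ctss rose. This gene encodes cathepsin S, a lysosomal protease abundant in macrophages, and was at 5.64, 5.03 and 7.06 CPM in HET against 2.31, 1.77 and 2.19 CPM in WT (log2 fold change 1.499, SE 0.20, adjusted p = 0.0322, edgeR). The lowest of the 7 was Ctsl at −0.05, and their median was 0.53. With HET 1, HET 3, WT 1 or WT 2 left out, edgeR called 0 genes in either direction, so Ctss, Col6a2 and Mustn1 were not called there. Each of these fits has 1 library fewer. The lowest adjusted p of any gene in them was 0.052 to 0.092 (edgeR). The fits without HET 2 and without WT 3, also with 1 library fewer, called 14 and 77 genes as higher in HET. The cause was not tested.

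Markers of endothelial, mural and muscle cells, which are enclosed by basement membrane, had log2 fold changes on both sides of 0. Of 10 endothelial markers, 4 were above 0 and 6 below (median −0.06), with a summed level of 677 to 827 CPM in HET and 729 to 897 CPM in WT. Of 7 pericyte markers, 2 were above 0 and 5 below (median −0.04, lowest Rgs5 at −0.33). Their summed level was 974 to 1142 CPM in HET and 1164 to 1280 CPM in WT, so that every HET sum lay below WT. Taken gene by gene, 1 of the 7 had every HET library below every WT library, against 6.02% of all genes tested. Vascular smooth muscle markers had 4 of 6 above 0 (median 0.07), at 250 to 311 and 237 to 281 CPM. The 7 muscle fiber markers had a median of −0.05, the 8 Schwann cell and perineurium markers 0.03 and the 4 satellite cell markers −0.29. Of the satellite cell markers, 3 were below 0 and 1 above, and 2 had every HET library below every WT library.

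Markers of fibroblasts, tenocytes, macrophages and adipocytes had log2 fold changes above 0, as did 45.6% of all genes tested. Calls of higher in HET made up 0.143% of all genes tested. All 10 fibroblast and fibro-adipogenic progenitor markers were above 0 (median 0.59), with a summed level of 1320 to 1430 CPM in HET and 679 to 1081 CPM in WT, and Pi16 passed the edgeR test. That list shares Smoc2 and Fbln1 with the basement membrane components. All 8 tenocyte markers were above 0 (median 1.09, 372 to 664 CPM against 120 to 299.6 CPM). All 10 macrophage markers were above 0 (median 1.40, 86.1 to 124 CPM against 49.3 to 55.0 CPM), and Csf1r, C1qa, C1qb, Adgre1 and Lyz2 passed the test. The 4 markers of adipocytes, which are also wrapped by basement membrane, were all above 0 (median 1.07). Their sums overlapped, at 23.2 to 66.9 CPM in HET and 6.62 to 42.0 CPM in WT. Of these 4 markers, 0 had an unadjusted p under 0.05 (edgeR). No marker of any list was at 0 in all libraries. Pi16 and the macrophage genes are named after their values were seen. The part of these cells in the values of Col18a1, Nid1 and the collagen IV share was not tested.

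Genes with profiles most like those of 3 members were named by the smallest root mean square difference of log2 CPM over the 6 libraries, after centring each gene on its own mean, as a description. For Col4a1 they were the chemokine gene Cxcl12 (0.0601), Xirp1, Spata13, 9930014A18Rik and Fgf6 (0.0934). For Col15a1 they were Adamts5 (0.0564), Anxa5, Ifitm3, Fam129a and Tiam2 (0.0738). For Nid1 they were Lgi2 (0.0326), Ddr2, Fdps, Golim4 and Tle3 (0.0608). Ddr2, a collagen receptor, is also in the receptor list, and its log2 fold change was 0.44 (SE 0.15, adjusted p = 0.385, edgeR). Among the members, Col15a1 and Nid2 were next closest after the Col4a1 and Col4a2 pair, at 0.101, followed by Col15a1 with Nid1 at 0.127.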

How the data were processed

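Poly-A RNA of soleus (RIN over 8) was made into stranded libraries and sequenced as single reads. The authors aligned reads with STAR 2.7.3a to GRCm38.p6 and counted them per gene with featureCounts 2.0.3, strand-aware; these raw counts were deposited. The deposited normalized counts are the same counts divided by 1 size factor per library, a relative signal. A table of the authors' own fold changes and p-values was not used. Counts were fitted with edgeR 4.0.16 (R 4.3.3; TMM, a minimum count of 10, robust quasi-likelihood, genotype as the term, adjusted p under 0.05); alternatives used DESeq2 1.42.0 and limma 3.58.1. Ratios and figures used Python 3.11.15, SciPy 1.17.1 and matplotlib 3.10.9. All per-sample columns matched a label. Replicates of a genotype differed by more than sampling noise (chi-square 16.1 to 46.8 per gene). The labels number replicates without naming animals, so p-values measure the spread between these libraries. The scripts were tested on simulated data.

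The members and all lists were chosen with earlier results of these data known. The genes named are the members, the highest, lowest and significant genes of each pathway list, stated partners of the members, the 5 nearest profiles of Col4a1, Col15a1 and Nid1, and genes that check the labels.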

Additional observations from a re-analysis of the deposited data

How the results depend on the processing

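Under 19 alternatives, 171 of 171 member values kept their sign and 166 kept their side of the threshold. Sizes moved more: with a GC trend removed, Col4a1 went from 0.17 to 0.10 and Col4a2 from 0.17 to 0.08. In that fit Col18a1 was 0.65 (adjusted p = 0.321, edgeR) and Nid1 stayed at 0.39. With no filter on low counts, 2 members were past the threshold, Col18a1 and Nid1 (adjusted p of Nid1 0.0117, edgeR). That fit called 1.33% of its 29081 genes as higher in HET. Col18a1 alone was past the threshold with DESeq2, which called 1.48% of 14696 genes as higher. It was also past it with the replicate block, where 114 of 14696 genes were higher. The same held with a length trend removed and the replicate block (adjusted p = 0.0218, edgeR), where 140 of 14696 were higher. With 1 library left out, members past the threshold were 0 to 0. Genes higher in HET numbered 21 in edgeR, 386 with no filter, 218 with DESeq2, 12 with limma-voom, 6 with a non-robust fit, 6 with a GC trend removed, 114 with the replicate block, 140 with length trend and replicate block, and 94 with GC trend and replicate block. Genes lower numbered 1, and 18, 8, 1, 0, 1, 2, 2 and 2 in the same order. With 1 library left out, 0 to 77 were higher and 0 to 6 lower: 0 were higher without HET 1, HET 3, WT 1 or WT 2, 14 without HET 2 and 77 without WT 3. The log2 difference of Col4a2 over Col4a1 changed sign without HET 1 (0.019), HET 3 (0.033) or WT 3 (0.066), and ranged from −0.073 to 0.066. The causes were not tested.

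Using library totals only, the median of all genes was 0.06; the receptor list then had a median of 0.11, satellite cell markers −0.21, and muscle fiber, endothelial and pericyte markers 0.02, 0.02 and 0.03, the last 3 with their sign turned. The collagen IV share differed by −13.1 to −8.68 points with 1 library left out. Same-number correlations ran from −0.03 to 0.20, highest for HET 1 with WT 1, and those of other pairs from −0.14 to 0.13. These values do not settle whether the replicate numbers pair the libraries. The block changed no call of a member other than that of Col18a1. Col4a6 had too few reads to pass the filter of the main fit.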
